A study of Mus musculus with 14 samples.

Results

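Small nucleolar RNA (snoRNA) host genes are non-coding genes whose introns hold snoRNAs, the short RNAs that guide the methylation and pseudouridylation of ribosomal RNA. The genes described here are Gas5 and all genes named Snhg, and they were taken as every probe set whose platform annotation symbol is Gas5 or starts with Snhg and names 1 gene alone. The rule found 30 of 45037 probe sets, which name 15 of the 18193 genes that probe sets name alone. They are Gas5 (4 probe sets), Snhg1 (5), Snhg3, Snhg4, Snhg5 (3), Snhg6, Snhg7, Snhg8, Snhg10 (3), Snhg11 (2), Snhg12, Snhg14 (3), Snhg16 (2), Snhg17 and Snhg18, with 1 probe set where no number is given. A further 2 probe sets name a host gene together with its snoRNA and were left out of the members.

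The samples were erythroid progenitors grown in culture from the femur and tibia marrow of wild-type C57Bl/6 female mice of 8 to 12 weeks. Stage E1, called CFUe-like after the colony-forming unit-erythroid, was taken on day 3 by depleting lineage-positive cells and selecting Kit-positive, CD71-positive ones, and the later stage E2 was taken on day 3.5 of parallel cultures by depleting lineage-positive and Kit-positive cells and selecting CD71-positive ones. Cells of both stages spent 5.5 h free of cytokines, followed by 90 min with erythropoietin (EPO, the hormone that erythroid progenitors depend on) at 4 U/mL or with none. Total RNA was hybridised to Affymetrix mouse arrays, 3 of EPO-challenged and 3 of unchallenged E2 cells and 4 of EPO-challenged and 4 of unchallenged E1 cells. The labels call these biological replicates and do not say how many animals fed a culture, so a p-value measures the spread between these preparations. The day of stage E1 follows the labels.

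Each value is a log2 signal from which 1 constant per probe set has been subtracted, here called a centred log2 value. It shows how arrays differ for a probe set and does not show a level, so no gene is set against another by level. A changed share of a cell type and a changed amount of RNA per cell cannot be told apart in such samples. Arrays of a group correlated at 0.719 to 0.912 over all probe sets, and their small number sets how precise a value can be. The median SD between replicates was 0.0343 in EPO-challenged and 0.0317 in unchallenged E2 arrays, and 0.0729 in EPO-challenged and 0.0934 in unchallenged E1 arrays. The spread of the members was wider, with a median SD of 0.0652 and 0.0487 in the E2 groups and 0.18 and 0.188 in the E1 groups, EPO-challenged first.

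A host gene is transcribed and spliced like a messenger RNA, and the snoRNA is cut out of the intron that splicing releases. The spliced exons of most host genes carry no long reading frame, and for Gas5 the spliced RNA is known to be held at a low level by nonsense-mediated decay, which acts when ribosomes translate it, so that it builds up when translation or growth is slowed. Several host genes start with a run of pyrimidines at the transcription start (a terminal oligopyrimidine, or TOP, start), a feature shared with ribosomal protein genes, whose translation follows growth signals. Arrays of this kind are labelled from the poly(A) tail, so they report the host transcripts and not the mature snoRNAs, which carry no tail. RefSeq (GRCm38.p6) annotates all 15 genes as long non-coding RNA genes. It places 8 snoRNA genes inside Gas5 (chr1:161034601-161038539), 8 inside Snhg1 (chr19:8723487-8726326), 3 inside Snhg16 (chr11:116671660-116675798), 2 inside Snhg5 (chr9:88521052-88522897), 2 inside Snhg7 (chr2:26637176-26640244) and 206 inside Snhg14 (chr7:59272737-60450177), the long transcript of the Prader-Willi and Angelman syndrome region. It places none inside Snhg10 and 1 to 4 inside each of the other 8 genes.

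The start regions are shown because a pyrimidine run there is what several host genes are known to share. RefSeq's promoter table (GRCm38.p6) matched 13 of the 15 genes. Each line gives 40 bases, 20 before and 20 from the annotated start, on the gene's strand, with the longest run of C and T in that window in capitals, for the 4 genes with a probe set that passed an EPO test below and for Snhg7, Snhg8 and Snhg12.
Gas5: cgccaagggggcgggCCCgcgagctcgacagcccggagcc
Snhg1: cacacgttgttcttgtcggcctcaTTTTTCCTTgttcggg
Snhg5: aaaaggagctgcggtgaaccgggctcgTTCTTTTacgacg
Snhg16: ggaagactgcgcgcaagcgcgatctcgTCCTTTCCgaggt
Snhg7: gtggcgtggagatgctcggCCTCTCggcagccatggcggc
Snhg8: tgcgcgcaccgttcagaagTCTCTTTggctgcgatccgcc
Snhg12: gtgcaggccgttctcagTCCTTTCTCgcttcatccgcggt
Snhg7 and Snhg8 are the 2 of 13 with a C at the annotated start and at least 4 further pyrimidines, which 2.51% of 32851 promoters of the same length also have. A run of at least 6 pyrimidines lies within the 40 bases in 9 of 13 genes and in 37.5% of all promoters. In Snhg1, Snhg5 and Snhg16 it begins a few bases after the annotated start, and in Gas5 the longest run has 3 bases. The arrays do not show which start these cells used. A short run at an annotated start therefore does not show that a gene lacks a TOP start. Neither CACGTG, the E-box bound by Myc, nor TTCNNNGAA, the site bound by Stat5, was found on either strand of the 300 bases (250 before and 50 after the start) of the 13 genes, against 7.15% and 8.3% of all promoters. These are matches of letters and do not show a bound or an unbound site.

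EPO challenge of stage E1, the comparison the study was built on, moved few host genes past the test. Of 30 probe sets 2 were higher with EPO and 0 were lower (limma, two-sided, Benjamini-Hochberg adjusted p under 0.05 over 45037 probe sets), where 0.804% of all probe sets were higher and 0.36% lower. Both were found in genes that also hold probe sets without such a change, Gas5 and Snhg1. At an unadjusted p under 0.05, 11 of 30 were higher and 0 lower, against 5.02% and 3.82% of all probe sets. The median change over the 30 was 0.023, against -0.005 over all probe sets. E1 arrays of the same replicate number deviated together, though no source states a shared culture. Neither call held with the number as a block, as given beside each gene, and the other values of this comparison are from the unpaired fit unless the block is named. The block cut the calls over all probe sets too, to 44 higher and 17 lower, against 362 and 162 without it.

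Gas5 (growth arrest-specific 5), first found as a transcript that accumulates in arrested cells, gave the probe set 1436222_at. Its centred log2 values were 0.85, 1.04, 1.09 and 0.55 in EPO-challenged and -0.29, 0.071, 0.045 and 0.11 in unchallenged E1 arrays. All 4 EPO-challenged arrays lay above all 4 unchallenged ones, and unchallenged replicate 1 was the lowest of its group by a wide gap. The log2 change was 0.90 (SE 0.143, fold 1.86, limma adjusted p = 0.0443), and with the replicate block the adjusted p was 0.175. It also missed the threshold without any 1 of 7 of the 8 arrays, all but EPO replicate 4 (adjusted p 0.0911 to 0.131). Snhg1, the host of Snord22 and of 7 further snoRNAs, gave 1437658_a_at, with 1.56, 1.48, 1.33 and 1.40 in EPO-challenged and 0.80, 0.51, 0.80 and 0.38 in unchallenged E1 arrays. The groups did not overlap, the change was 0.82 (SE 0.11, fold 1.77, limma adjusted p = 0.0245), and the adjusted p with the block was 0.121. Without unchallenged replicate 2 or without any 1 of the EPO-challenged arrays it was 0.0571 to 0.0723.

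Further members separated the E1 groups without passing. In all, 9 of 30 probe sets had every EPO-challenged E1 array above every unchallenged one and 1 had every array below, where 3.28% and 2.3% of all probe sets did. The one below was Snhg1 1433675_at, at -0.19 (limma adjusted p = 0.639). The 7 above that did not pass were those of Gas5, Snhg1, Snhg4, Snhg7, Snhg16 (both probe sets) and Snhg17. The values of Gas5 1424843_a_at were 0.99, 1.06, 1.04 and 1.10 in EPO-challenged and 0.35, 0.31, -0.44 and -0.76 in unchallenged E1 arrays. The EPO-challenged arrays stood close together while the unchallenged ones fell into a higher and a lower pair, and the change of 1.18 (SE 0.26) had a limma adjusted p of 0.123. Snhg16, which holds Snord1a, Snord1b and Snord1c, had 2.05, 1.5, 1.73 and 2.38 with EPO and -0.39, -0.18, 0.79 and 0.90 without in 1453344_at (change 1.64, limma adjusted p = 0.124). Its second probe set, 1436677_at, had 0.90, 1.72, 1.44 and 1.74 with EPO and -0.0001, 0.13, 0.54 and -0.031 without (change 1.29, limma adjusted p = 0.057), the closest of the members to the threshold that did not pass it. Snhg7, host of the pseudouridylation guides Snora17 and Snora43, had 2.66, 2.93, 2.34 and 2.35 with EPO and 2.01, 1.88, 1.80 and 1.04 without, with unchallenged replicate 4 the lowest. Its change was 0.89 (95% interval 0.31 to 1.47, limma adjusted p = 0.23). Snhg17 changed by 1.26 (adjusted p = 0.313), Snhg4 by 0.82 (0.233) and Snhg1 1454703_x_at by 0.74 (0.28) in the same limma fit. These values are differences, and none is called a rise.

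The other Gas5 probe sets changed far less. Gas5 1419291_x_at had 0.43, 0.10, 0.34 and 0.26 in EPO-challenged and 0.32, -0.035, 0.36 and 0.36 in unchallenged E1 arrays, with the groups overlapping. Its change was 0.035 (95% interval -0.23 to 0.30), and it turned to -0.0603 without unchallenged replicate 2 and to -0.0136 without EPO replicate 1. Gas5 1449410_a_at had 0.29, -0.13, 0.36 and 0.19 with EPO and 0.16, 0.18, 0.27 and 0.36 without, a change of -0.067 (95% interval -0.33 to 0.20), which was 0.0354 without EPO replicate 2. The widest interval among the members was that of Snhg14 1455087_at, which changed by -1.23 (-2.73 to 0.28) with overlapping groups.

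**Figure D1:**
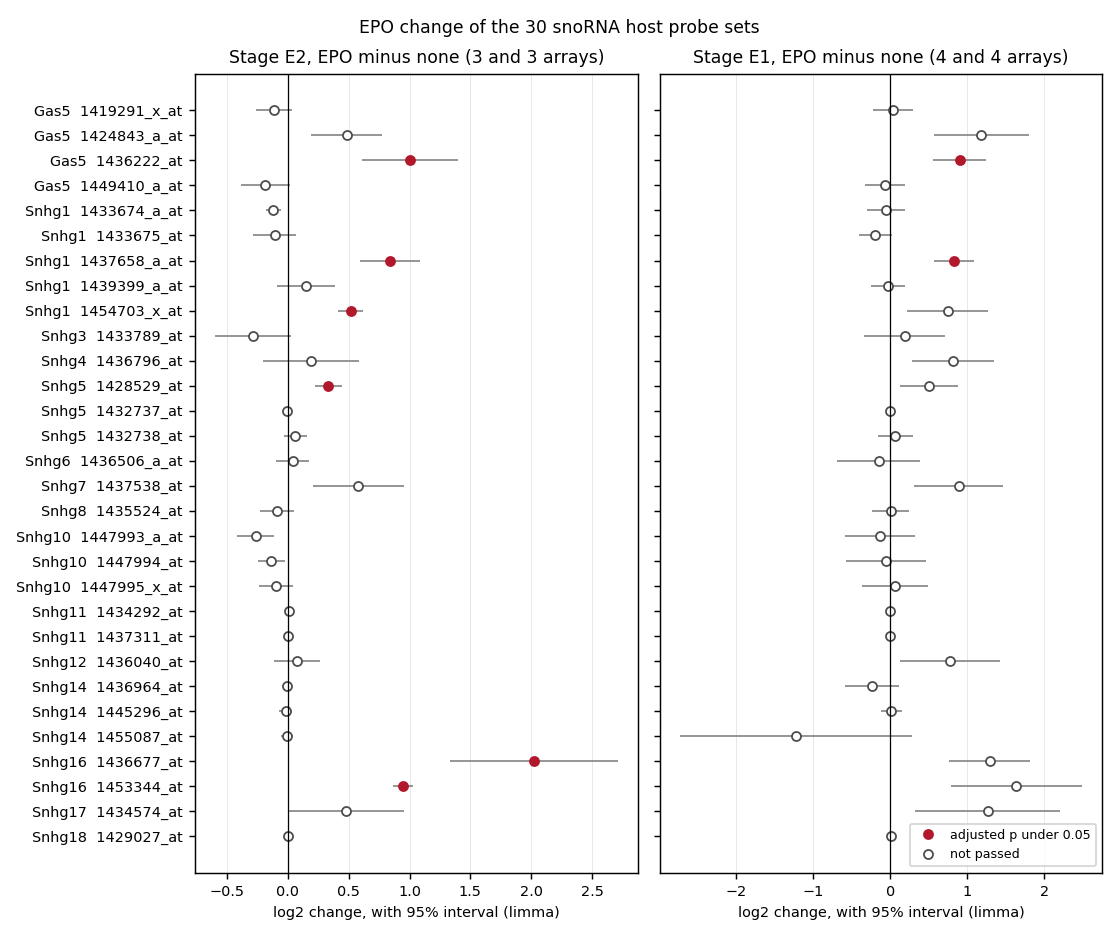
EPO change of all 30 host-gene probe sets as the log2 difference between EPO-challenged and unchallenged arrays (points) with its 95% interval (lines), in stage E2 (left, 3 and 3 arrays) and stage E1 (right, 4 and 4 arrays); filled points passed an adjusted p of 0.05. In stage E2 6 points passed and in stage E1 2, all to the right of 0, and the x axes of the panels differ.

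EPO challenge of stage E2 raised 6 of 30 probe sets and lowered 0 (limma, adjusted p under 0.05), against 2.54% of all probe sets higher and 2.08% lower. They belong to 4 genes, Gas5, Snhg1 (2 probe sets), Snhg5 and Snhg16 (both probe sets). The median change over the 30 was 0.003 and over all probe sets -0.005. In 9 of 30 every EPO-challenged array lay above every unchallenged one and in 4 below, where 9.42% and 13.7% of all probe sets did so. The 4 below were Snhg1 1433674_a_at, Snhg3 and the Snhg10 probe sets 1447993_a_at and 1447994_at, with changes of -0.12, -0.29, -0.26 and -0.14 (limma adjusted p 0.0682 to 0.342), and none passed. Snhg1 1433674_a_at passed with array weights (-0.12, limma adjusted p = 0.0416).

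Snhg16 had the largest rise among the members. Its probe set 1436677_at had 1.69, 1.71 and 2.57 in EPO-challenged and -0.034, -0.035 and -0.03 in unchallenged E2 arrays. The unchallenged arrays stood close together and EPO replicate 3 lay above the other 2. The log2 change was 2.02 (95% interval 1.33 to 2.71, fold 4.06, limma adjusted p = 0.026). The probe set 1453344_at had 0.94, 0.88 and 1.0 with EPO and -0.008, 0.008 and -0.017 without, with little spread in either group. It changed by 0.94 (SE 0.0323, fold 1.92, limma adjusted p = 0.00133), the smallest adjusted p of the members in this comparison. The SD of the unchallenged E2 arrays was 0.0028 for 1436677_at and 0.0124 for 1453344_at. Centred values do not show whether these arrays stood at background, where such a small spread and the folds would mean less.

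Gas5 rose through the same probe set as in stage E1. For 1436222_at the values were 0.23, 0.24 and 0.44 in EPO-challenged and -0.47, -0.65 and -0.98 in unchallenged E2 arrays, with a change of 1.01 (SE 0.152, fold 2.01, limma adjusted p = 0.0377). Gas5 1424843_a_at had 0.23, -0.053 and 0.10 with EPO and -0.29, -0.31 and -0.58 without. These groups did not overlap either, and the change of 0.48 (95% interval 0.19 to 0.78) had a limma adjusted p of 0.108. Gas5 1419291_x_at had 0.0006, -0.18 and -0.032 with EPO and 0.052, 0.087 and -0.0006 without, and Gas5 1449410_a_at had 0.0035, -0.26 and -0.16 and 0.033, 0.12 and -0.0035 in the same order. Their changes of -0.12 and -0.19 (limma adjusted p = 0.429 and 0.34) came from overlapping groups.

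Snhg1 rose in 2 of its 5 probe sets. The values of 1437658_a_at were -0.024, 0.024 and 0.15 with EPO and -0.68, -0.71 and -0.96 without (log2 change 0.84, SE 0.0951, adjusted p = 0.0187, limma). Those of 1454703_x_at were 0.09, 0.0073 and -0.0073 with EPO and -0.49, -0.43 and -0.54 without (log2 change 0.51, SE 0.04, adjusted p = 0.00746, limma). In both, every EPO-challenged array lay above every unchallenged one. Snhg5 1428529_at had 0.052, -0.052 and 0.057 with EPO and -0.29, -0.27 and -0.38 without, the smallest rise that passed (log2 change 0.33, SE 0.0437, adjusted p = 0.0265, limma). The same probe set in stage E1 had 1.34, 1.69, 1.74 and 2.03 with EPO and 1.45, 1.01, 1.15 and 1.18 without (change 0.50, limma adjusted p = 0.318), where the groups overlapped. Snhg7 had 0.20, -0.17 and 0.17 in EPO-challenged and -0.55, -0.32 and -0.66 in unchallenged E2 arrays, again without overlap, and its change of 0.58 (95% interval 0.20 to 0.95) had a limma adjusted p of 0.124.

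The E2 calls for Snhg1 1454703_x_at and Snhg16 1453344_at held with any 1 array left out, at adjusted p values of 0.0254 to 0.0361 and 0.00444 to 0.0131. The other 4 missed the threshold without 1 array: Gas5 1436222_at without any 1 array but unchallenged replicate 3 (0.0529 to 0.124), Snhg1 1437658_a_at without unchallenged replicate 2 or any EPO-challenged array (0.0592 to 0.0684), Snhg16 1436677_at without any 1 array but EPO replicate 3 (0.0607 to 0.104) and Snhg5 1428529_at without any 1 array but EPO replicate 2 (0.0678 to 0.0936). With quantile normalization all 6 passed at larger changes (0.82 for Snhg5 1428529_at to 3.06 for Snhg16 1436677_at, and 2.15 for Gas5 1436222_at), while the E1 changes of Gas5 1436222_at and Snhg1 1437658_a_at were smaller, at 0.62 and 0.52, and did not pass (limma adjusted p = 0.0535 and 0.148). That setting rescaled values already centred per probe set, and these shifts cannot be separated from the rescaling.

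Across the stages, which share no array in the EPO comparisons, 8 of 30 probe sets had all EPO-challenged arrays above all unchallenged ones in both stages, where 1.99% of all probe sets did. None lay below in both, where 1.11% did. The 8 are Gas5 1436222_at and 1424843_a_at, Snhg1 1437658_a_at and 1454703_x_at, both Snhg16 probe sets, Snhg7 and Snhg17. The difference between the EPO changes of the stages, E2 minus E1, was tested as an interaction in a joint fit of the 14 arrays. It passed for 0 of 30 members (limma, adjusted p under 0.05), where 0.415% of all probe sets passed in either direction, and 0 members had an unadjusted p under 0.05. For Snhg1 1437658_a_at the difference was 0.014 (95% interval -0.33 to 0.36), with changes of 0.84 in E2 and 0.82 in E1. For Gas5 1436222_at it was 0.11 (-0.37 to 0.59) and for Snhg16 1436677_at 0.73 (-0.051 to 1.52). Other probe sets of these genes had the opposite sign, Gas5 1424843_a_at at -0.70 (-1.43 to 0.026) and Snhg16 1453344_at at -0.69 (-1.65 to 0.27). The differences of Snhg4 (-0.63, -1.30 to 0.041) and Snhg12 (-0.69, -1.44 to 0.047) leave room for a smaller EPO change in E2 or for none. With quantile normalization of the centred values 3 members passed, Gas5 1436222_at (1.53), Snhg1 1437658_a_at (1.43) and Snhg16 1436677_at (2.13). For Snhg1 1437658_a_at that setting raised the E2 change to 1.95 and cut the E1 change to 0.52. These 3 calls therefore cannot separate a stage difference from the rescaling.

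**Figure D2:**
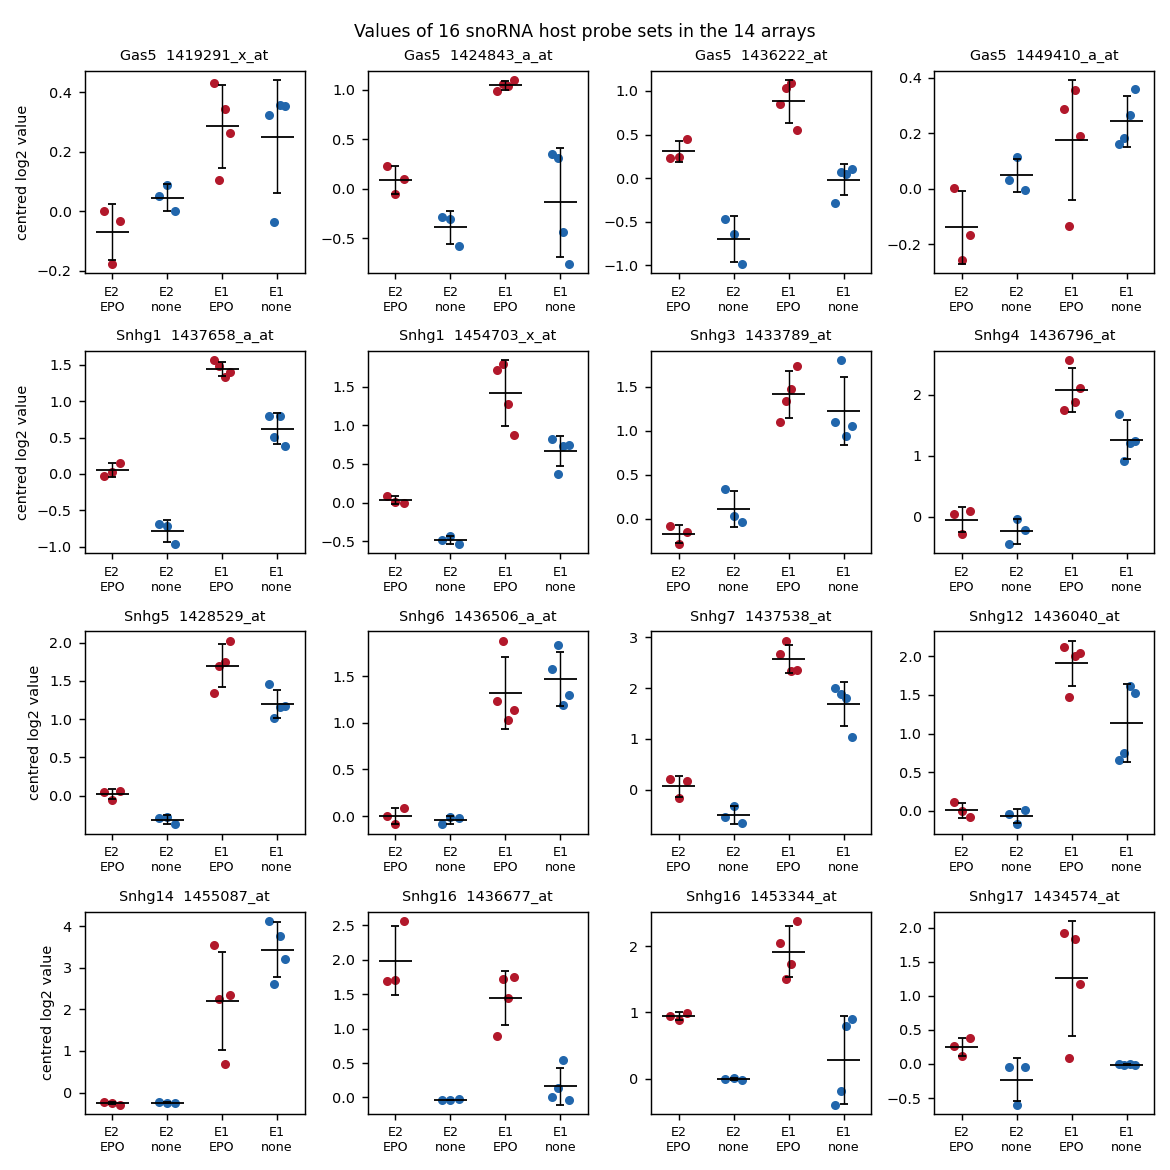
Centred log2 values of 16 host-gene probe sets in every array (points), with the group mean (long bar) and SD (error bar), for EPO-challenged (red) and unchallenged (blue) arrays of stage E2 (n = 3 each) and stage E1 (n = 4 each). Each panel has its own y axis; Gas5 1436222_at is higher with EPO in both stages while Gas5 1419291_x_at and 1449410_a_at overlap, and Snhg14 1455087_at lies between -0.29 and -0.23 in all 6 E2 arrays and between 0.68 and 4.13 in the 8 E1 arrays.

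Probe sets of 1 gene differed in their EPO changes, though no difference between them passed a test after adjustment. Probe sets ending in _a_at match several transcripts of a gene and those ending in _x_at hold some probes that also match other sequences, and neither the array files nor the annotation used here place the probe sets on exons. The EPO changes of each pair of probe sets of the same gene were compared by an exact two-sided permutation test over arrays of the difference between them, in 27 pairs a stage. This comparison was chosen after the values were seen. In stage E1 11 of 27 pairs reached an exact p of 0.0286, the smallest that 4 against 4 arrays allow, and none passed after Benjamini-Hochberg adjustment (smallest adjusted p = 0.0702). A pair could have passed only if more of the 27 had reached that smallest p, so this result does not show equal changes. The 11 pairs include those of Gas5 1424843_a_at or 1436222_at with 1419291_x_at or 1449410_a_at, whose differences were 0.86 to 1.25 in size. They also include the pairs of Snhg1 1437658_a_at or 1454703_x_at with 1433674_a_at, 1433675_at or 1439399_a_at. In stage E2 17 of 27 pairs reached 0.1, the smallest exact p that 3 against 3 arrays allow, so no pair could pass there. In other pairs the changes lay closer to each other, and in stage E1 the exact p was 0.486 for Gas5 1424843_a_at with 1436222_at, 0.771 for Snhg1 1437658_a_at with 1454703_x_at and 0.429 for the Snhg16 pair.

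With the probe sets of each gene averaged and 18193 genes tested, 2 of 15 host genes were higher with EPO in stage E1, Gas5 by 0.51 (SE 0.052, limma adjusted p = 0.00459) and Snhg16 by 1.46 (SE 0.223, adjusted p = 0.0197). With the replicate block the adjusted p was 0.0497 for Gas5 and 0.0621 for Snhg16. Snhg1 did not pass in this form (0.26, limma adjusted p = 0.179). In stage E2, Snhg16 (1.48, limma adjusted p = 0.00718), Snhg1 (0.25, 0.0117) and Snhg5 (0.13, 0.0344) were higher, Snhg10 was lower (-0.16, 0.0228), and Gas5 did not pass (0.30, 0.115). The share of all 18193 genes that passed in this form is not given, so these counts cannot be set against a background.

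Stage E2 against stage E1 gave the widest differences of the host genes, all of those that passed being lower in E2. Without EPO 13 of 30 probe sets were lower in E2 and 0 higher (limma, joint fit, adjusted p under 0.05), where 10.8% of all probe sets were lower and 10.1% higher. The 13 belong to 9 genes, Gas5, Snhg1, Snhg3, Snhg4, Snhg5, Snhg6, Snhg7, Snhg12 and Snhg14. Under EPO 16 of 30 were lower and 0 higher, where 12% and 10.3% of all were, and Snhg16 joined as the 10th gene. The medians over the 30 were -0.238 without EPO and -0.465 under EPO, against -0.027 over all probe sets in each. Both comparisons come from the same joint fit and share no array. Every E2 array lay below every E1 array in 18 of 30 members without EPO and in 19 under EPO. Over all probe sets 38% and 47.1% did so, so a separation of the stages is common on these arrays.

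**Figure D3:**
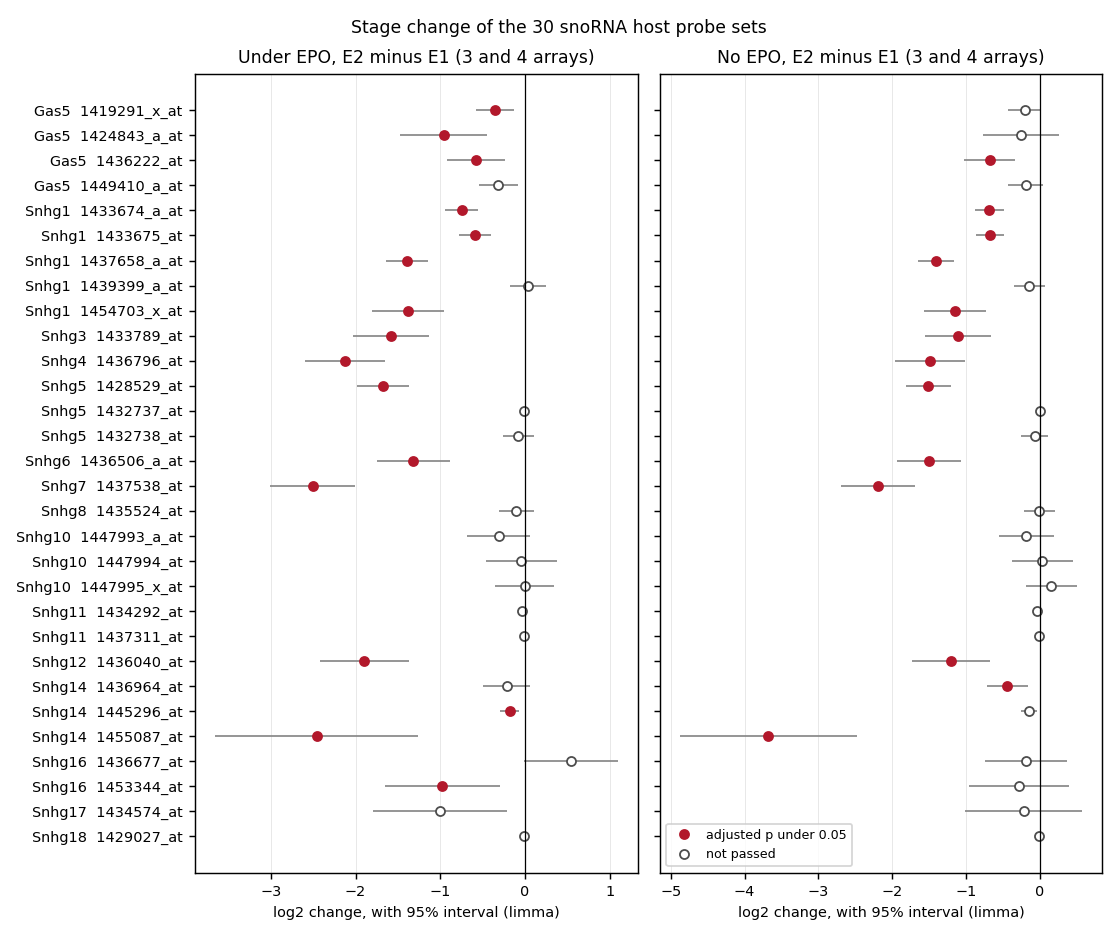
Stage change of all 30 host-gene probe sets as the log2 difference E2 minus E1 (points) with its 95% interval (lines), in EPO-challenged arrays (left) and unchallenged arrays (right), 3 E2 and 4 E1 arrays each; filled points passed an adjusted p of 0.05. All 16 and 13 filled points lie left of 0, Snhg14 1455087_at has the widest intervals, and the filled point of Snhg16 1453344_at (left panel) lies right of 0, at 0.0466, with quantile normalization.

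The stages also differ in the markers of other cells. Over all probe sets 12% were lower and 10.3% higher in E2 under EPO, and 10.8% and 10.1% without. Of 10 probe sets of 10 neutrophil and granulocyte markers 8 were lower in E2 in either comparison, with a median of -7.00 under EPO and -7.14 without. The mean centred value of that list was -0.065 to -0.032 in EPO-challenged and -0.051 to -0.046 in unchallenged E2 arrays, and 5.233 to 5.548 and 5.324 to 5.684 in the E1 groups in that order. Of the macrophage and monocyte list 2 of 7 probe sets were lower, of the mast cell and basophil list 2 of 5, of the B cell list 1 of 6 and of the T cell list 0 of 9, and of the megakaryocyte list 4 of 5 were higher. Of the erythroid and progenitor list 6 of 9 probe sets were higher and 2 lower under EPO, and 7 higher and 2 lower without. The 2 lower were those of Kit, by which the cells were sorted, and Alas2, the first enzyme of erythroid haem synthesis, was higher by 4.14 under EPO and by 4.22 without (limma adjusted p = 8.83e-07 and 8.87e-07). Centred values do not show which of these markers are at background. Their part in the stage differences of the host genes was not tested. With EPO, 0 probe sets of these 7 lists passed in either stage, where 1.16% of all probe sets did in stage E1 and 4.62% in stage E2.

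Snhg14 1455087_at fell furthest without EPO. Its values were -0.24, -0.26 and -0.24 in unchallenged E2 arrays and 4.13, 2.61, 3.77 and 3.22 in unchallenged E1 arrays. Under EPO they were -0.23, -0.24 and -0.29 in E2 and 3.55, 2.26, 0.68 and 2.35 in E1. The E2 arrays stood together below all E1 arrays, which were widely spread. Whether the E2 arrays stood at background cannot be seen in centred values. The changes were -3.68 without EPO (SE 0.543, fold 12.8, limma adjusted p = 0.000475) and -2.46 under EPO (adjusted p = 0.00642). Its other probe sets moved less. Snhg14 1436964_at had -0.22, -0.19 and -0.17 in unchallenged E2 and 0.29, 0.089, -0.034 and 0.65 in unchallenged E1 arrays (change -0.44, limma adjusted p = 0.0284), and with EPO -0.21, -0.19 and -0.22 in E2 and 0.15, -0.027, -0.0052 and -0.076 in E1 (change -0.22, not passed). The call without EPO was lost without unchallenged E1 replicate 1 or any 1 unchallenged E2 array (adjusted p 0.0604 to 0.0881) and with the replicate block (0.0681). Snhg14 1445296_at had -0.18, -0.15 and -0.17 in EPO-challenged E2 and 0.12, -0.01, 0.01 and -0.055 in EPO-challenged E1 arrays (change -0.18, limma adjusted p = 0.0272). Without EPO it had -0.18, -0.15 and -0.11 in E2 and 0.14, 0.012, -0.089 and -0.047 in E1 (change -0.15, not passed), and the call under EPO was lost without EPO replicate 1 or 3 of E1 or any EPO-challenged E2 array (0.0526 to 0.0856).

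Snhg7 was lower in E2 in both comparisons. In the values already given, the E2 arrays lay from -0.66 to 0.20 and the E1 arrays from 1.04 to 2.93. The fall was -2.50 under EPO (SE 0.227, fold 5.68, limma adjusted p = 1.15e-05) and -2.19 without (SE 0.227, fold 4.58, adjusted p = 3.52e-05). Snhg4, host of Snora74a, had 0.044, -0.28 and 0.088 in EPO-challenged E2 and 1.75, 2.56, 1.88 and 2.11 in EPO-challenged E1 arrays. Without EPO it had -0.45, -0.044 and -0.22 in E2 and 1.68, 0.90, 1.21 and 1.23 in E1. The 7 arrays of each comparison separated by stage, as those of 47.1% and 38% of all probe sets did with E2 lower. The changes were -2.12 (limma adjusted p = 2.62e-05) and -1.5 (0.000387).

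Snhg12, which holds 4 snoRNAs of both classes, had 0.11, -0.0063 and -0.084 in EPO-challenged E2 and 2.12, 1.47, 2.0 and 2.04 in EPO-challenged E1 arrays, and -0.038, -0.17 and 0.0063 and 0.66, 0.75, 1.61 and 1.52 in the unchallenged arrays in that order. Its changes were -1.90 under EPO (limma adjusted p = 0.00013) and -1.21 without (0.00345). Snhg3, host of Snora73a and Snora73b and a neighbour of Snhg12 on chromosome 4, had -0.086, -0.29 and -0.15 in EPO-challenged E2 and 1.10, 1.34, 1.47 and 1.73 in EPO-challenged E1 arrays. Its unchallenged arrays had 0.34, 0.032 and -0.032 in E2 and 1.10, 1.80, 0.94 and 1.05 in E1. It fell by 1.59 under EPO and by 1.11 without (limma adjusted p = 0.000152 and 0.0021), and the stages did not overlap. Snhg6, host of Snord87, had 0.0048, -0.088 and 0.083 in EPO-challenged E2 and 1.24, 1.88, 1.02 and 1.13 in EPO-challenged E1 arrays. Without EPO the values were -0.088, -0.0048 and -0.022 in E2 and 1.57, 1.83, 1.19 and 1.29 in E1. Its changes of -1.32 and -1.51 (limma adjusted p = 0.000457 and 0.000188) stood beside EPO changes of 0.038 in E2 and -0.15 in E1, with 95% intervals of -0.095 to 0.17 and -0.69 to 0.39. Snhg5 1428529_at, whose values are given above, fell by 1.68 under EPO and by 1.51 without (limma adjusted p = 5.47e-06 and 1.37e-05).

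Snhg1 was lower in E2 in 4 of its 5 probe sets in both comparisons. The 2 that had risen with EPO fell most, 1437658_a_at by 1.39 under EPO and 1.41 without, and 1454703_x_at by 1.38 and 1.15 (limma adjusted p = 4.3e-06, 4.48e-06, 0.000271 and 0.0011). The E1 values of 1454703_x_at were 1.72, 1.79, 1.27 and 0.87 with EPO and 0.82, 0.38, 0.73 and 0.74 without. The probe set 1433674_a_at had -0.12, -0.14 and -0.07 in EPO-challenged E2 and 0.73, 0.45, 0.70 and 0.67 in EPO-challenged E1 arrays, and 0.031, -0.013 and 0.013 and 0.94, 0.54, 0.58 and 0.73 in the unchallenged ones in that order. It changed by -0.75 and -0.69 (limma adjusted p = 9.59e-05 and 0.000196). The probe set 1433675_at had -0.13, -0.14 and -0.15 in EPO-challenged E2 and 0.54, 0.22, 0.48 and 0.56 in EPO-challenged E1 arrays, and -0.026, -0.17 and 0.091 and 0.79, 0.61, 0.56 and 0.61 in the unchallenged ones. It changed by -0.59 and -0.68 (limma adjusted p = 0.000416 and 0.00017). Neither of these 2 probe sets had passed with EPO in either stage. The 5th, 1439399_a_at, changed by 0.034 and -0.14 and passed in neither.

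Gas5 was lower in E2 in 1 of its 4 probe sets without EPO and in 3 under EPO. The probe set 1436222_at changed by -0.68 without EPO (limma adjusted p = 0.0081) and by -0.57 under EPO (0.0198). Under EPO 1424843_a_at (-0.96, adjusted p = 0.0115) and 1419291_x_at (-0.36, 0.0266) were lower too, while 1449410_a_at did not pass (-0.31, 0.0561). All 3 calls under EPO were lost with quantile normalization (adjusted p = 0.781, 0.107 and 0.0604 in the order given), while 1449410_a_at passed with that setting (-0.41, limma adjusted p = 0.0395) and with array weights (-0.36, 0.00832). Without EPO quantile normalization gave -1.65 for 1436222_at (limma adjusted p = 0.000207) and -0.86 for 1424843_a_at (0.0209), which had changed by -0.26 and not passed. The 3 calls under EPO were also lost without 1 array: 1436222_at without EPO replicate 2 or 3 of E1 or 1 or 2 of E2 (0.0512 to 0.0751), 1424843_a_at without EPO replicate 2 of E2 (0.0501) and 1419291_x_at without EPO replicate 1 or 3 of E1 or 2 or 3 of E2 (0.06 to 0.109).

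Snhg16 depended on the probe set. Under EPO 1453344_at was lower in E2 by 0.98 (limma adjusted p = 0.0427), while 1436677_at changed by 0.54 (adjusted p = 0.153) with the stages overlapping. With quantile normalization 1453344_at turned to 0.0466 (adjusted p = 0.948) and 1436677_at was higher in E2, at 1.99. The call for 1453344_at was lost with the replicate block (0.055) and without any 1 of EPO replicates 1, 3 and 4 of E1, the unchallenged E2 arrays or the EPO-challenged E2 arrays (0.0595 to 0.113), where the unchallenged arrays bear on it through the pooled spread alone. Without EPO neither probe set passed (changes -0.29 and -0.19).

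The other 11 probe sets passed in no comparison. Snhg8, host of Snora24, ranged from -0.094 to 0.35 over the 14 arrays and the 3 Snhg10 probe sets from -0.68 to 0.45. Snhg17, which separated EPO-challenged from unchallenged arrays in both stages, ranged from -0.60 to 1.93. The Snhg1 probe set 1439399_a_at ranged from -0.10 to 0.29 and Snhg5 1432738_at from -0.0725 to 0.37. Both Snhg11 probe sets, Snhg18 and Snhg5 1432737_at ranged over at most 0.1028 units in all. For 3 of them (Snhg11 1437311_at, Snhg18 and Snhg5 1432737_at) the range was under 0.1, as it was for 22.2% of all probe sets, and such values give no information on a change.

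The proteins that bind snoRNAs moved with the stages as most host genes did. The lists of these proteins were written with earlier results of these data known. Over all probe sets 12% were lower and 10.3% higher in E2 under EPO, and 10.8% and 10.1% without. Of 5 probe sets of the box C/D core (Fbl, Nop56 and Nop58, which form the methylation complex with the guide RNA) 5 were lower in E2 in both comparisons, with medians of -1.51 under EPO and -1.19 without. Of 8 probe sets of the box H/ACA core (Dkc1, Gar1, Nhp2 and Nop10, which form the pseudouridylation complex) 7 were lower in both, with medians of -1.62 and -1.05. Of 12 probe sets of assembly factors 8 were lower and 1, of Pih1d1, higher in both. Nop58 changed by -3.53 under EPO and -2.49 without (limma adjusted p = 1.07e-06 and 1.6e-05).

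With EPO in stage E1, 2 of 5 box C/D probe sets were higher and 0 lower, Nop56 at 1.01 (SE 0.0821, limma adjusted p = 0.00435) and Nop58 at 1.14 (SE 0.186, adjusted p = 0.0459). Of the H/ACA core 1 of 8 was higher, Dkc1 at 0.73 (adjusted p = 0.0197). In stage E2 0 of 5 and 1 of 8 were higher, the H/ACA one being Nhp2 at 0.11 (limma adjusted p = 0.0432). Over all probe sets 0.804% were higher with EPO in stage E1 and 2.54% in stage E2. Naf1, which assembles H/ACA particles, was the 1 of 12 assembly probe sets that was higher in E2 (0.71, limma adjusted p = 0.0169) and in E1 (0.99, adjusted p = 0.0138). None of these E1 calls held with the replicate block (limma adjusted p = 0.066 for Nop56, 0.109 for Nop58, 0.0807 for Dkc1 and 0.1 for Naf1). The interaction passed for none of these probe sets.

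Of 14 probe sets of nonsense-mediated decay genes, 0 passed with EPO in stage E1 and 1 was higher in stage E2, Smg5 at 0.40 (limma adjusted p = 0.0383). Over all probe sets 1.16% passed in stage E1 in either direction and 2.54% were higher in stage E2. Between the stages 3 were higher and 2 lower under EPO, and 2 were higher and 2 lower without. Over all probe sets 10.3% were higher and 12% lower under EPO, and 10.1% and 10.8% without. Upf1, the helicase at the centre of this pathway, was higher in E2 by 1.42 under EPO and by 1.27 without (limma adjusted p = 0.000144 and 0.000373). Smg1, the kinase that acts on Upf1, changed by -4.06 and -2.83 (limma adjusted p = 2.47e-06 and 4.26e-05).

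Of 32 probe sets of 14 protein-coding snoRNA hosts, 4 were higher with EPO in stage E2 and 2 in stage E1, with 0 lower in either. Over all probe sets 2.54% were higher in E2 and 0.804% in E1, and the list medians were -0.004 and 0.06. Rpl12, a large-subunit ribosomal protein, was higher in both, by 3.20 in E2 (limma adjusted p = 0.0079) and by 3.02 in E1 (adjusted p = 0.00837). The others in E2 were Eif4a1 at 0.82 (limma adjusted p = 0.00229) and 2 probe sets of Hspa8 at 1.87 and 0.24, and the other in E1 was Nop56. With the replicate block the E1 call for Rpl12 was lost too (limma adjusted p = 0.0622). Between the stages 13 were lower and 1 higher under EPO, and 11 lower and 0 higher without. The list medians were -0.248 and -0.11. Over all probe sets 12% were lower and 10.3% higher under EPO, and 10.8% and 10.1% without.

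Over the 14 arrays the host probe sets with the largest SD in each family were Gas5 1424843_a_at and Snhg14 1455087_at. The genes outside the family most like Gas5 1424843_a_at were Dicer1 (Pearson r 0.951), Cpd (0.948), Lin7c (0.918), Otud4 (0.91) and Ccnd2 (0.909), and those most like Snhg14 1455087_at were Ahsa2 (0.982), Scin (0.978), Emb (0.976), Cox17 (0.968) and Cfap298 (0.96). Among the members Snhg1 1437658_a_at ran most closely with Snhg7 (0.961), Snhg1 1454703_x_at (0.955), Snhg5 1428529_at (0.934) and Snhg4 (0.925). These correlations are descriptions over arrays that share the 4 groups, and the difference between the stages enters each of them.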

How the data were processed

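RNA of 14 samples was measured on Affymetrix Mouse Genome arrays. The authors used GCOS for scanning and GeneSpring GX 11.0 for GC-RMA, and deposited log2 values. The log base is not stated and was taken as 2 from the study's printed folds. In 78.0% of probe sets some values stand at equal size above and below 0 (to within 2e-06), so 1 constant per probe set had been subtracted before deposit. Levels and a filter on low levels could therefore not be derived, and depth does not apply.

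EPO-challenged and unchallenged arrays of each stage were compared by limma 3.58.1 (R 4.3.3; lmFit and eBayes, two-sided) over 45037 probe sets, without the 64 control probe sets. A joint model of the 14 arrays with 4 group means gave the stage comparisons and the interaction. An adjusted p (Benjamini-Hochberg) under 0.05 was taken as passed. Gene names came from the platform annotation, in which 34945 probe sets name 1 gene, 932 several and 9160 none. Permutation tests used scipy 1.17.1. The scripts were tested on simulated data.

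The members and the gene lists were chosen with earlier results of these data known. Every member gene is named. Values in every array are given for each member probe set that passed in at least 1 of the 5 comparisons and for Gas5 and Snhg7, which the study names, and the others by range. Likeness takes the 5 genes with the highest Pearson r, by their best probe set. Of the list members that passed, some are named, at most 4 a direction, and these are not always the ones with the smallest p. Some genes of the lists are not reported here.

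In stage E1, arrays of the same replicate number deviated together (correlations 0.195, 0.187, 0.173 and 0.152, all over 0.1), although the best match of unchallenged replicate 4 was EPO replicate 3 (0.203). The numbers come from the labels, and no source states a shared culture. Alternatives were array weights, quantile normalization, centring of each array on its median, the trend and robust options of limma, the 22518 probe sets with the largest SD, the replicate number as a block, other sets of arrays in the fit, an adjusted p under 0.1, probe sets averaged per gene, the methods' t-test (single-tailed) and each array left out in turn. The comparison of probe sets of 1 gene was added after the values were seen.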

Additional observations from a re-analysis of the deposited data

Results flagged for a closer look

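Within groups of 4 arrays, 7 of 60 sets of member values held 1 array far from the others by Dixon's criterion at 95%, where chance alone gives about 1 in 20. Among EPO-challenged E1 arrays these were replicate 4 for Snhg5 1432738_at (0.373, the others from -0.0161 to 0.0005) and replicate 2 for Snhg8 (0.3462, the others from -0.003 to 0.0343). Among unchallenged E1 arrays they were replicate 2 for Gas5 1419291_x_at (-0.0348, the others from 0.3226 to 0.3593), replicate 2 for Snhg10 1447995_x_at (-0.6502, the others from -0.0074 to 0.1058) and replicate 1 for Gas5 1436222_at (-0.2884, the others from 0.045 to 0.1078). Replicate 1 also stood apart for Snhg18 (0.0221) and Snhg5 1432737_at (0.0178), 2 of the probe sets that hardly vary. The groups of 3 E2 arrays were not tested.

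A probe set outside the members names Gas5 together with Snord47, a methylation guide inside it (1455904_at). It had 0.0538, -0.0538 and 0.1597 in EPO-challenged and -0.7739, -0.8616 and -1.2054 in unchallenged E2 arrays, and 2.1303, 2.283, 2.2388 and 2.0895 in EPO-challenged and 0.4388, 0.289, 0.8995 and 1.0104 in unchallenged E1 arrays. With EPO it was higher in both stages, by 1.0002 in E2 (limma adjusted p = 0.0272) and by 1.526 in E1 (limma adjusted p = 0.0125), and no EPO-challenged array overlapped an unchallenged one of its stage. Between the stages it changed by -2.13 under EPO and by -1.61 without (limma adjusted p = 3.84e-06 and 3.61e-05). The probe set that names Snhg8 together with Snora24 (1447896_s_at) changed by -0.10 in E2 and by -0.12 in E1 with EPO and did not pass (limma adjusted p = 0.688 and 1).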

How the results depend on the processing

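In stage E1, the 2 EPO calls among the members became 0 with quantile normalization or the replicate block, 1 with each array centred on its median or the methods' t-test after Benjamini-Hochberg adjustment, 6 with array weights, 5 among the probe sets of larger SD, 8 with all 14 arrays in 1 fit and 0 to 1 with an array left out. The methods' t-test without adjustment gave 12 (11 higher, 1 lower). This single-tailed test took the tail of the observed direction, so it calls more than a two-sided test at the same threshold. No share over all probe sets is given beside its counts in either stage. In stage E2, the 6 calls became 1 with the replicate block, 3 with all 14 arrays in 1 fit, 14 with the unadjusted t-test (9 higher, 5 lower) and 2 to 4 with an array left out. The E2 replicate numbers did not pair the arrays (correlations -0.061, -0.057 and -0.016), so the block there has no basis in the deviations. Over all probe sets that block gave 264 higher and 153 lower in stage E2, against 1146 and 935 without it. Counted by probe set, the 13 lower calls without EPO and the 16 under EPO stayed within 12 to 15 and 11 to 19 under the alternatives run, and quantile normalization added 1 higher call under EPO. With probe sets averaged per gene, 9 of 15 genes were lower in either comparison, 2 were higher with EPO in stage E1, and 3 were higher and 1 was lower in stage E2. No share over all genes is given beside these per-gene counts. With the block the calls of Snhg14 1436964_at (without EPO) and Snhg16 1453344_at (under EPO) were lost, and no other stage call among the members. That block joins equal numbers across the stages, where pairing was not examined. All E1 calls of the gene lists were lost with the block. The interaction gave 0 under every alternative but quantile normalization, which gave 3. The direction of Snhg16 1453344_at under EPO turned to 0.0466 with quantile normalization. With an array left out, the E1 change of Gas5 1419291_x_at ranged from -0.0603 to 0.0952 and that of Gas5 1449410_a_at from -0.1277 to 0.0354. The cause of these shifts was not tested. The median over all probe sets moved by less than 0.1 with either rescaling. It lay from -0.027 to 0.001 in every setting, so it cannot show how far single probe sets moved. Gas5 1436222_at went from 1.01 to 2.15 in stage E2 with quantile normalization.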
